A study of Mus musculus with 6 samples.

Results

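Atp5g1, Atp5g2 and Atp5g3, the 3 nuclear genes of the ATP synthase c subunit, and Atpif1, the gene of the ATP synthase inhibitor IF1, were followed in brown adipose tissue (BAT) of wild-type (WT) and Letmd1 knockout (KO) mice. They are 4 of the 23282 rows of the count files, found by gene symbol, and all 4 passed the filter on low counts that left 12995 rows for testing. They were selected on the library-scaled counts per mouse and on the share of each c-subunit gene in their sum, compared between the genotypes. For this reason all differences of the 4 genes are given as a description, with no test, and tests are given only for other genes.

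The study compared 3 WT with 3 Letmd1 KO male mice, C57BL/6N, at 5 weeks of age. LETMD1 is a mitochondrial protein, and the KO mice lacked it in the whole body through a knockout-first allele from 1 ES cell clone, in which a lacZ and neomycin resistance cassette sits in the intron between exons 2 and 3. The other group is labelled wild type, and the labels name no treatment for either group. RNA of whole BAT was read with QuantSeq, a 3′ method that gives about 1 read for each mRNA end, so that counts of different genes can be set side by side without dividing by length. Letmd1 had 5658, 6490 and 5266 counts in the WT mice and 0, 0 and 1 counts in the KO mice, as their labels say.

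ATP synthase couples the flow of protons through its membrane part, Fo, to the making of ATP in its matrix part, F1. The c subunits form the ring that turns with the protons, and the 3 genes make preproteins whose import sequences differ while the mature peptide is the same. IF1 is a small matrix protein known for blocking ATP hydrolysis by the enzyme when the membrane potential is lost. BAT dissipates the proton gradient as heat through UCP1 and is known for a low content of ATP synthase relative to its respiratory chain, and the c subunit has long been regarded as limiting for assembly of the complex in this tissue.

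The sequences that encode the mature c subunit are shown because they tell how far reads of the 3 genes can be told apart. On GRCm38 with the GENCODE vM21 annotation, all 4 genes lie on the minus strand. Atp5g1 lies at chr11:96068852-96075670, Atp5g2 at chr15:102662864-102672352, Atp5g3 at chr2:73908447-73911326 and Atpif1 at chr4:132530555-132533659. Each c-subunit gene has 4 coding exons, and the mature peptide is encoded by the last 225 coding bases, spread over 2 of them (within chr11:96073107-96073635, chr15:102663017-102665166 and chr2:73908596-73909296). The first 183, 213 and 198 coding bases of Atp5g1, Atp5g2 and Atp5g3 encode the part that is removed after import. Written 5′ to 3′ on the coding strand, with capitals at the bases that are not the same in all 3 genes, these stretches read as follows.
Atp5g1: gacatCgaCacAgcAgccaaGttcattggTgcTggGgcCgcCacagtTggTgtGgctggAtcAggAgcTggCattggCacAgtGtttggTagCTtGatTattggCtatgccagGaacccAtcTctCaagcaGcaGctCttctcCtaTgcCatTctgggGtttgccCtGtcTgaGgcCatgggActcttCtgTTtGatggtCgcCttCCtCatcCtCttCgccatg
Atp5g2: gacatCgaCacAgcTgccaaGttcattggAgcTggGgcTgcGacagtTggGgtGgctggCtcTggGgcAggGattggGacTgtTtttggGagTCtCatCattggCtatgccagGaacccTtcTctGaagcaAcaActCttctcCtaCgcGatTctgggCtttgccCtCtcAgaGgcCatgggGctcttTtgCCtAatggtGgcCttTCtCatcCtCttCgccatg
Atp5g3: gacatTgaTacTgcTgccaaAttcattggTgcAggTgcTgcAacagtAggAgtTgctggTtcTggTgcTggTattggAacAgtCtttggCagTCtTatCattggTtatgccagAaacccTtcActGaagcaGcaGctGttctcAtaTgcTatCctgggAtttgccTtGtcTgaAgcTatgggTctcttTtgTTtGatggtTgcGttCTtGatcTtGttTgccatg

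All 75 codons encode the same residue in the 3 genes, but only 23 are spelled the same way in all of them. Of the 225 bases, 168 (74.7%) were identical in all 3 genes, and 52 of the 57 that differed lay at the third base of a codon. Atp5g1 and Atp5g2 were the closest pair with 84.9% identical bases, against 80.0% for Atp5g1 and Atp5g3 and 78.7% for Atp5g2 and Atp5g3. The longest run of bases shared between any transcripts of a pair was 21 bases for Atp5g1 and Atp5g2 and 12 bases for each of the other pairs, while the reads were 75 bases long. In these transcripts, no read of full length can match 2 of the 3 genes without mismatches.

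Other genes can share reads with them. The authors counted unique and multiple alignments, and a run of 75 bases of Atp5g2 also occurs in 2 pseudogenes and in Mir688, which lies within the gene, none of which has a row in the count files. The 2 pseudogenes that share such a run with the transcripts of Atp5g1 under 1000 bases have no row either. When the longer transcripts of Atp5g1 are counted too, whose ends reach to position 96068852 on chromosome 11, 35 genes share such a run, 28 of them with a row. No such run was found for Atp5g3. Atpif1 overlaps the antisense gene Gm12999, which has no row. Whether strand was used when counting is not given in the sources used here. A missing row does not keep reads of such a gene out of the counts of a member. The part of shared reads in the counts of the members was not tested.

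The start regions of the 3 c-subunit genes are shown because genes of 1 peptide differed in direction between the genotypes, as given further on. RefSeq's promoter table on GRCm38.p6 gives 300 bases for each gene, from 250 before to 50 after its start, and holds all 4 members. The start used for Atpif1 lies 1755 bases upstream of the nearest GENCODE transcript start, and its window was left out here. For the other genes that distance was 12 bases for Atp5g1, 80 bases for Atp5g2 and 0 for Atp5g3, although the GENCODE gene of Atp5g2 begins 1305 bases further upstream with another transcript. Each window below is 30 bases of the minus strand, with the motif in capitals, and both strands were searched. The NRF1 motif CGCATGCGC was in Atp5g2 (chr15:102671070-102671099, where the capitals mark its match on the other strand, and the match on the printed strand begins 1 base further on), the ERR half-site AAGGTCA in Atp5g3 (chr2:73911360-73911389, read there on the other strand), and the E-box CACGTG in Atp5g1 (chr11:96075658-96075687) and Atp5g3 (chr2:73911547-73911576).
Atp5g2, NRF1: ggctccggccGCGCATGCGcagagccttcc
Atp5g3, ERR half-site: ttgttacaaagTGACCTTgagcgtcttccc
Atp5g1, E-box: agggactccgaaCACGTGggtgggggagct
Atp5g3, E-box: acccctgcctggCACGTGcaaggagcgagg

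Of 27025 promoters of the same length, 1 for each symbol, 1.81% held the NRF1 motif, 4.66% the ERR half-site and 7.24% the E-box. The NRF1 motif is nearly its own reverse complement, so its matches on both strands overlapped and were counted once. CCAAT was present 4 times in Atp5g1 and once in Atp5g3, against a share of 37.9% of promoters with at least 1 match. The ATF4 motif TGATGNAA, present in 4.06% of promoters, was not found in these windows of the 3 genes. These are matches of letters and not binding sites.

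CPM below are counts brought to a common library size by TMM, which corrects for differences in RNA composition between libraries. The libraries held between 6669577 and 14574273 counts. With 0 counts a gene could still have had up to 3, or 0.176 to 0.397 CPM depending on the library, counting error only. The TMM factors were between 0.852 and 0.886 in the WT mice and between 1.13 and 1.17 in the KO mice. Scaling by library size alone moved the median log2 fold change of all rows tested from 0.03 to 0.45. Where this matters for a direction, the values are given beside it.

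Atp5g1, the least abundant c-subunit gene, was low in WT BAT and higher in every KO mouse. It had 85, 109 and 59 counts in the WT mice and 545, 455 and 950 counts in the KO mice. As levels these were 9.16, 11.6 and 7.69 CPM in WT BAT and 59.9, 60.2 and 55.9 CPM in Letmd1 KO BAT. The 2 genotypes did not overlap, and the lowest KO mouse was far above the highest WT mouse. The mean was 9.47 ± 1.95 CPM in WT BAT and 58.7 ± 2.42 CPM in Letmd1 KO BAT (SD, n = 3 each), a 6.19-fold difference with a log2 fold change of 2.62 (SE 0.17). Ordered by mean level among the rows tested, Atp5g1 stood at rank 8457 in WT BAT and 2945 in Letmd1 KO BAT. A log2 fold change at least as high was found in 498 rows, Atp5g1 included, 3.83% of those tested. Its relative spread between mice was 20.6% in WT BAT, where the counts were few, and 4.13% in Letmd1 KO BAT.

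Atp5g2 was lower in every KO mouse. It had 1967, 1900 and 1713 counts in the WT mice and 1126, 985 and 2153 counts in the KO mice. Its level was 212, 201 and 223 CPM in WT BAT and 124, 130 and 127 CPM in Letmd1 KO BAT. The genotypes did not overlap, although the deepest KO library held the most counts. The mean was 212 ± 10.96 CPM in WT BAT, 1.67-fold that of 127 ± 3.32 CPM in Letmd1 KO BAT (SD, n = 3 each), with a log2 fold change of -0.74 (SE 0.10). With scaling by library size alone it was -0.32 and after quantile normalization -0.51.

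Atp5g3 supplied most of the c-subunit counts in both genotypes. Its counts were 11308, 10563 and 8739 in the WT mice and 7885, 8052 and 13058 in the KO mice. On the CPM scale these were 1219, 1120 and 1139 in WT BAT and 866.5, 1066 and 768 in Letmd1 KO BAT. The KO mice were all below the WT mice, but KO mouse 2 came close to them, and the KO mice spread more (16.8% of their mean, against 4.53%). The mean was 1159 ± 52.5 CPM in WT BAT and 900.0 ± 152 CPM in Letmd1 KO BAT (SD, n = 3 each), with a log2 fold change of -0.37 (SE 0.14) that turned to 0.05 with library size alone and to 0.38 after quantile normalization. No direction is therefore given for Atp5g3. Its rank among the rows tested was 130 in WT BAT and 91 in Letmd1 KO BAT, so that it stood higher in the order at a lower CPM.

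Atpif1, which encodes the inhibitor, was higher in every KO mouse. It had 398, 364 and 316 counts in the WT mice and 1643, 1190 and 2780 counts in the KO mice. Its level was 42.9, 38.6 and 41.2 CPM in WT BAT and 181, 157.5 and 163.5 CPM in Letmd1 KO BAT. The genotypes were far apart, and within each the mice differed little (5.31% of the mean in WT BAT and 7.16% in Letmd1 KO BAT). The mean was 40.9 ± 2.17 CPM in WT BAT and 167 ± 11.97 CPM in Letmd1 KO BAT (SD, n = 3 each), 4.09-fold, with a log2 fold change of 2.03 (SE 0.11), and the rank was 4167 and 928. As large a log2 fold change or a larger one was found in 868 rows, 6.68% of those tested.

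**Figure D1:**
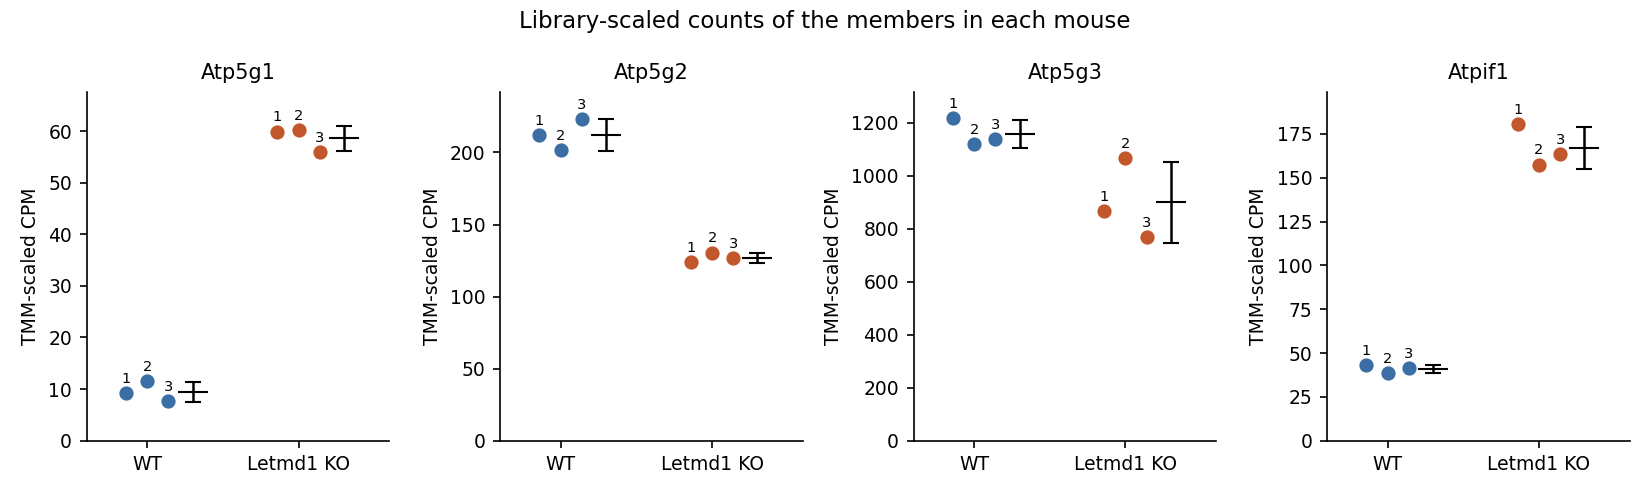
TMM-scaled CPM of the 4 genes in each mouse, in panels with their own linear axis from 0. Numbered points are mice, and the black bars are the mean ± SD of 3 mice. Atp5g1 and Atpif1 lie higher in all 3 KO mice and Atp5g2 lies lower, while the lower values of Atp5g3 turned to a log2 fold change of 0.05 with library size alone and 0.38 after quantile normalization.

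For comparison, the KO values lay above all WT values in 30.1% of the rows tested and below all of them in 27.2%. The order of the 4 genes was the same in each mouse of a genotype. In WT BAT it was Atp5g3, Atp5g2, Atpif1 and Atp5g1. In Letmd1 KO BAT Atpif1 stood above Atp5g2, with values from 157.5 to 181 CPM against 124 to 130 CPM, and no neighbours in either order overlapped.

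Markers of several cell types also differed between the genotypes, and in bulk RNA fewer cells of a type and less RNA per cell cannot be told apart. Rows past the edgeR threshold (quasi-likelihood test, Benjamini-Hochberg adjusted p under 0.05) made up 22.3% of all rows tested in the lower and 23.7% in the higher direction. The 8 markers used for brown adipocytes include Fabp4, Adipoq and Plin1, which are genes of adipocytes in general. They were present in all mice. Their sum was 39300 to 44800 CPM in WT BAT and 11800 to 15700 CPM in Letmd1 KO BAT. Fabp4 was the largest part of it, with means of 28020 and 10460 CPM, while Ucp1 went from 6328 to 382 CPM. Of the 8 markers 7 were lower and, by edgeR, 0 were higher even at an unadjusted p under 0.05. The 13 macrophage markers summed to 197 to 265 CPM in WT BAT and 1540 to 3770 CPM in Letmd1 KO BAT, with 13 higher, and the 7 fibroblast markers to 2180 to 2890 CPM and 5950 to 10300 CPM, with 7 higher. The 7 endothelial markers summed to 462 to 592 CPM and 318 to 402 CPM, with 3 lower (Kdr, Cdh5 and Tek). The other 4 did not pass the threshold and differed in direction. Their log2 fold changes were 0.03 for Pecam1, 0.71 for Cldn5, -0.52 for Emcn and -0.50 for Tie1. The 15 skeletal muscle markers summed to 88.6, 529 and 101 CPM in the WT mice, of which 7, 0 and 4 markers were at 0, and to 376 to 1380 CPM in the KO mice, where none was at 0, with 2 higher (Myh1 and Casq1). The part of these cells in the values of the 4 members was not tested.

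The share of each gene in the summed c-subunit counts does not depend on the scaling of libraries. The sum was 13360, 12572 and 10511 counts in the WT mice and 9556, 9492 and 16161 counts in the KO mice. Atp5g1 made up 0.636% (95% Clopper-Pearson interval 0.509 to 0.786), 0.867% (0.712 to 1.04) and 0.561% (0.428 to 0.723) of it in the WT mice. In the KO mice its share was 5.70% (5.25 to 6.19), 4.79% (4.37 to 5.24) and 5.88% (5.52 to 6.25). These intervals cover counting error only, and those of the WT mice lay far below those of the KO mice. The mean share was 0.688% ± 0.16 in WT BAT and 5.46% ± 0.58 in Letmd1 KO BAT (SD, n = 3 each), 7.93 times as high and 4.77 percentage points more.

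Atp5g2 accounted for most of the points that Atp5g1 gained. Its share was 14.7%, 15.1% and 16.3% in the WT mice and 11.8%, 10.4% and 13.3% in the KO mice, again with no overlap. The mean share was 15.4% ± 0.82 in WT BAT and 11.8% ± 1.5 in Letmd1 KO BAT (SD, n = 3 each), a difference of -3.55 points. Atp5g3 held 84.6%, 84% and 83.1% in the WT mice and 82.5%, 84.8% and 80.8% in the KO mice. Here the genotypes overlapped, since KO mouse 2 had the highest share of all 6 mice, and the means of 83.9% ± 0.75 and 82.7% ± 2.0 differed by less than the SD between KO mice. Per 1000 counts of Atp5g2 there were 43.2, 57.4 and 34.4 counts of Atp5g1 in the WT mice and 484, 462 and 441 in the KO mice, a 10.3-fold difference of the means.

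**Figure D2:**
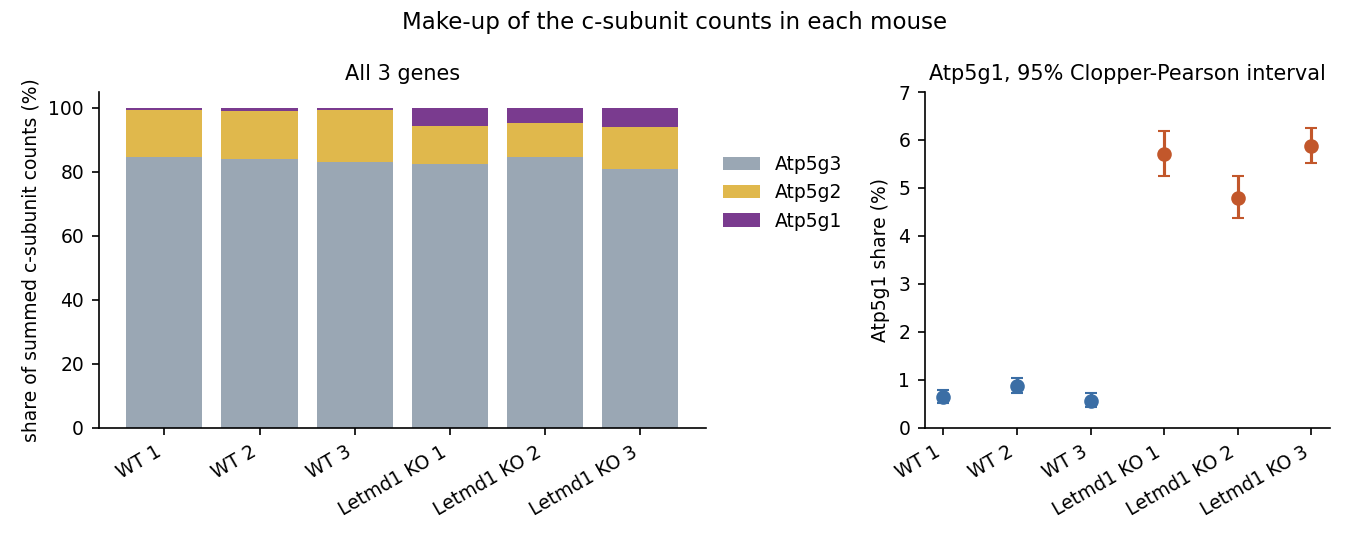
Left, stacked share of Atp5g3, Atp5g2 and Atp5g1 in their summed counts for each mouse, in percent. Right, the share of Atp5g1 alone with its 95% Clopper-Pearson interval, which lies between 0.428% and 1.04% in WT BAT and between 4.37% and 6.25% in Letmd1 KO BAT.

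The summed c-subunit level was 1440, 1333 and 1370 CPM in the WT mice and 1050, 1256 and 950.5 CPM in the KO mice. The mean sum was 1381 ± 54.5 CPM in WT BAT and 1086 ± 156 CPM in Letmd1 KO BAT (SD, n = 3 each), 0.786 of the WT value. With library size alone it was 1232, 1181 and 1167 CPM in the WT mice and 1226, 1426 and 1111 CPM in the KO mice, which overlapped and turned the ratio to 1.05, so no direction is given for the sum either. The 5 genes of F1, which make the catalytic head and its central stalk, summed to 9722 ± 101 CPM in WT BAT and 4924 ± 575 CPM in Letmd1 KO BAT (SD, n = 3 each), 0.507 of the WT value on the TMM scale and 0.678 with library size alone. Relative to F1, the c-subunit genes together were higher in the KO mice. Per 1000 F1 counts there were 148, 138 and 139 c-subunit counts in the WT mice and 222, 281 and 171 in the KO mice, without overlap but with a wide spread among the KO mice. The mean ratio was 142 ± 5.54 in WT BAT and 224.6 ± 55.4 in Letmd1 KO BAT (SD, n = 3 each), 1.58-fold. Against all 14 other nuclear subunit genes it was 1.64-fold.

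Atpif1 differed more on this scale than in CPM. For each 1000 F1 counts there were 4.42, 4.01 and 4.19 counts of Atpif1 in the WT mice and 38.1, 35.3 and 29.4 in the KO mice. The means of 4.21 ± 0.21 and 34.3 ± 4.47 (SD, n = 3 each) differed 8.14-fold, with no overlap. Relative to 1000 c-subunit counts there were 29.8, 28.95 and 30.1 counts of Atpif1 in the WT mice and 172, 125 and 172 in the KO mice, a 5.29-fold difference. For Atp5g1 the mean per 1000 F1 counts was 0.976 ± 0.21 in WT BAT and 12.1 ± 1.80 in Letmd1 KO BAT (SD, n = 3 each), 12.4-fold. All these ratios divide counts of the same mouse, so that library scaling does not enter them. The F1 denominator was itself lower in CPM in the KO mice.

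**Figure D3:**
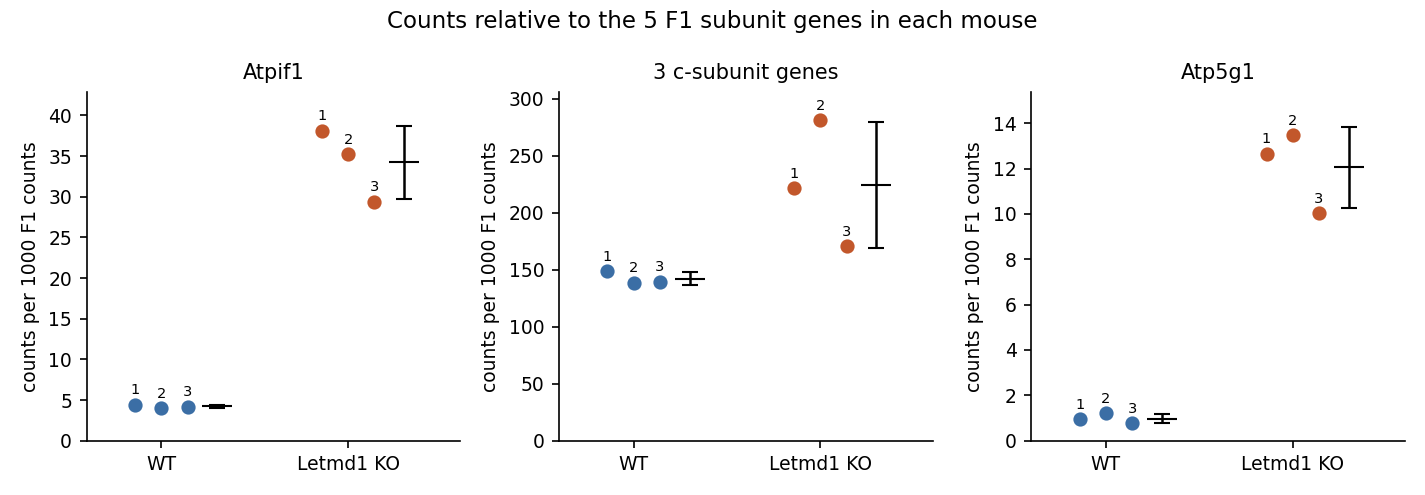
Counts of Atpif1, of the 3 c-subunit genes together and of Atp5g1 per 1000 counts of the 5 F1 subunit genes, for each mouse (numbered points) with the mean ± SD of 3 mice in black, on linear axes from 0. The KO mice lie above the WT mice in each panel, with Atpif1 at 29.4 to 38.1 against 4.01 to 4.42.

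The other subunit genes of ATP synthase were read as the surroundings of the 4 members. Of the 14 other nuclear subunit genes, 14 were lower and 0 higher, where 22.3% and 23.7% of all rows were, with a median log2 fold change of -1.21, against 0.03 for all rows tested. With library size alone 10 of them were lower, in a setting that called 10.5% of all rows lower and 45.4% higher. After quantile normalization with limma 8 were lower, against 23.7% lower and 20.9% higher of all rows. None of the 14 was higher in either setting. On the TMM scale the KO mice lay below the WT mice in all 14, and in 27.2% of all rows tested. At an unadjusted p under 0.05 from edgeR 0 of the 14 were higher too. DESeq2 gave 14 lower and 0 higher, where it called 22.4% and 22.7% of all rows.

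All 5 genes of F1 were lower on the TMM scale. Atp5e, the epsilon subunit of the central stalk, fell by 1.51 on the log2 scale (SE 0.15), from 1253 ± 144.5 to 440.2 ± 62.3 CPM (SD, n = 3 each). Atp5a1, the alpha subunit, was at 3827 ± 97.8 CPM in WT BAT and 1615 ± 262 CPM in Letmd1 KO BAT (adjusted p = 0.000217 from edgeR, and 0.119 after quantile normalization with limma). Atp5d, the delta subunit, had a log2 fold change of -1.18. Atp5c1, the gamma subunit that turns with the c ring, and Atp5b, the catalytic beta subunit, differed less, with -0.64 and -0.56. Neither passed the threshold with library size alone or after quantile normalization, where Atp5b turned to 0.36.

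The 9 genes of Fo and the peripheral stalk were also lower on this scale, from -1.48 for Atp5k, subunit e, and Atp5j2, subunit f, to -0.27 for Atp5j, stalk subunit F6. Atp5l, subunit g, fell by 1.34, and Usmg5 and 2010107E04Rik, small proteins attached to Fo, fell by 1.26 and 1.25 on the log2 scale. The stalk subunits Atp5f1, Atp5h and Atp5o had log2 fold changes of -0.97, -0.82 and -0.66, but Atp5h and Atp5o did not pass the threshold after quantile normalization, where Atp5o turned to 0.17, and Atp5o did not pass it with library size alone. Atp5j had an adjusted p of 0.0443 from edgeR, which lay between 0.0642 and 0.132 when any 1 mouse was left out, and its log2 fold change turned to 0.15 with library size alone. Set beside these genes, Atp5g3 at -0.37 and Atp5g2 at -0.74 were within their range, while Atp5g1 at 2.62 lay outside it on the other side of 0.

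**Figure D4:**
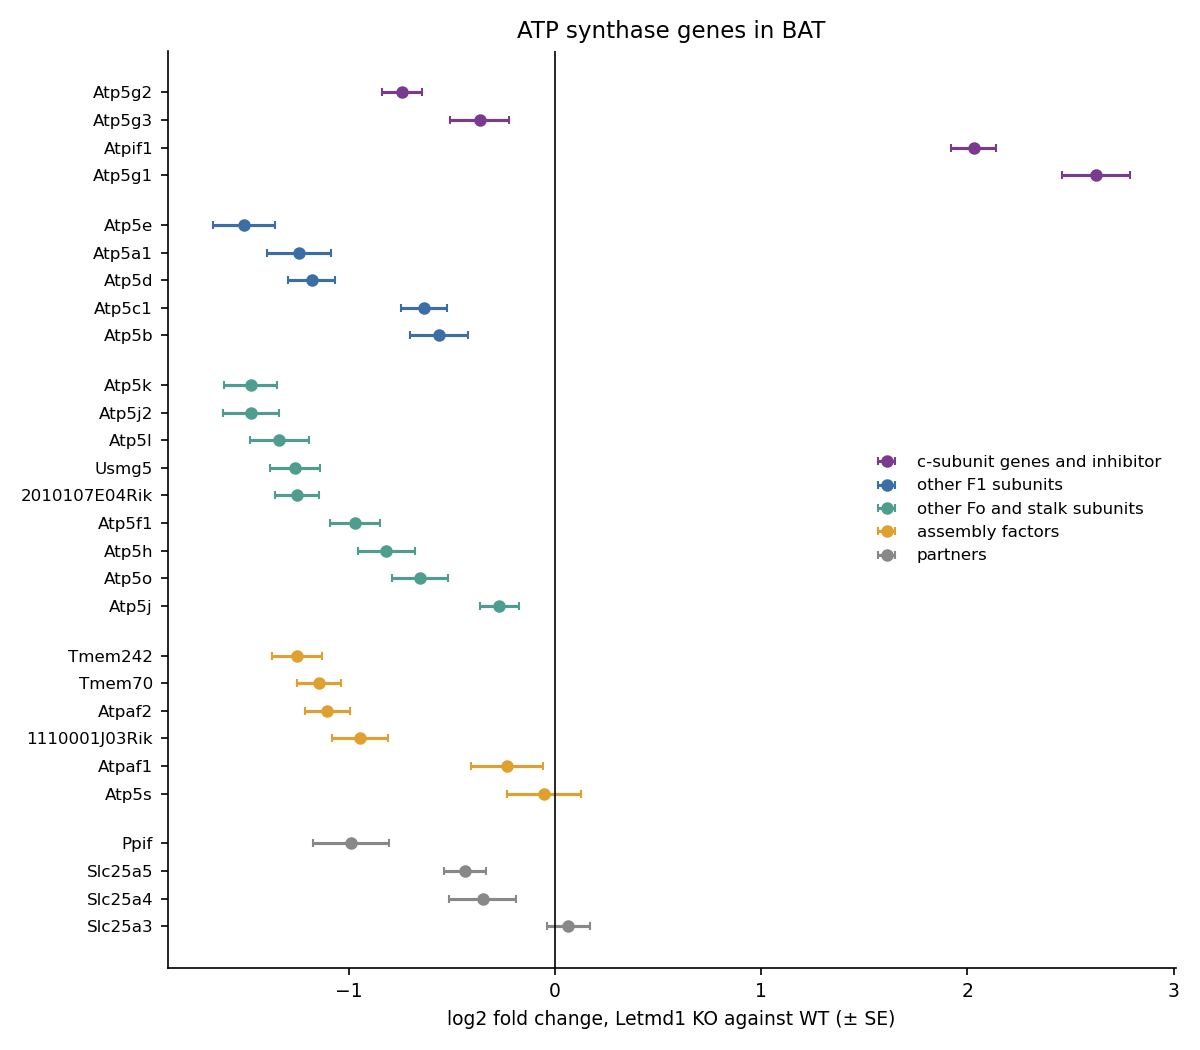
Log2 fold change between Letmd1 KO and WT BAT (TMM scaling) for the 4 members, the 14 other subunit genes, 6 assembly factors and 4 partners, as points with bars. The bars are standard errors worked back from the F statistic of edgeR. Atp5g1 (2.62) and Atpif1 (2.03) lie to the right of 0, and the 14 other subunits lie between -1.51 and -0.27, although after quantile normalization Atp5b, Atp5j and Atp5o turned to values above 0, as did Atp5j with library size alone.

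Assembly factors and partners of the enzyme were read in the same way. Of 6 assembly factors 4 were lower and 0 higher by edgeR, where 22.3% and 23.7% of all rows were, with 0 higher also at an unadjusted p under 0.05. Tmem70 and Tmem242, which act in the incorporation of the c ring, fell by 1.15 and 1.25 on the log2 scale, with adjusted p = 4.18e-05 and 5.33e-05 from edgeR. Tmem70 went from 265 ± 5.28 to 119.9 ± 11.2 CPM (SD, n = 3 each). Atpaf2, the chaperone of the alpha subunit, and 1110001J03Rik, also named Fmc1 and involved in F1 assembly, had log2 fold changes of -1.11 and -0.95. All 4 were also past the threshold with library size alone and after quantile normalization. Atpaf1, the chaperone of the beta subunit, was at 16.7 ± 0.35 CPM in WT BAT and 14.1 ± 2.55 CPM in Letmd1 KO BAT (adjusted p = 0.305 from edgeR), and Atp5s at 16.9 ± 2.04 and 16.2 ± 2.54 CPM (adjusted p = 0.826), SD with n = 3 each.

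Of the 5 partners, the carriers of adenine nucleotides and phosphate and cyclophilin D, 4 could be tested, and 2 were lower, against the same share of 22.3% of all rows. Ppif, cyclophilin D, was at 85.0 ± 11.5 CPM in WT BAT and 42.5 ± 10.6 CPM in Letmd1 KO BAT (SD, n = 3 each, adjusted p = 0.00197 from edgeR). Slc25a5, an adenine nucleotide translocator, had -0.44 (adjusted p = 0.00673), which was -0.02 with library size alone and -0.08 after quantile normalization. Slc25a4, the translocator known from heart and muscle, had -0.35 (adjusted p = 0.103). Slc25a3, the phosphate carrier, was at 485 ± 7.26 and 506.5 ± 31.5 CPM (SD, n = 3 each, log2 fold change 0.06, adjusted p = 0.651), and was higher with library size alone (0.48, adjusted p = 0.00462) and after quantile normalization (0.48, adjusted p = 0.00402).

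The V-ATPase, the proton pump of lysosomes and other acidic organelles, is built on a ring of related proteolipids. Of its 25 genes listed, 21 were tested, 3 were lower and 9 higher, where 22.3% and 23.7% of all rows were, with a median log2 fold change of 0.19. With library size alone 1 was lower and 12 higher, in a setting that called 10.5% of all rows lower and 45.4% higher. After quantile normalization 2 were lower and 12 higher, against 23.7% and 20.9% of all rows. Atp6v0c, its main proteolipid, was at 131.5 ± 2.89 CPM in WT BAT and 185 ± 21.9 CPM in Letmd1 KO BAT (SD, n = 3 each, log2 fold change 0.49, adjusted p = 0.0061 from edgeR). Atp6v0b, another proteolipid, had 0.19 (adjusted p = 0.172). Atp6v0a2 was the lowest of the other subunits with -0.95, and the other genes lower were Atp6v1d (-0.52) and Atp6v1f (-0.45), named after their values were seen. Atp6v0d2 was the highest with 7.07, on 1, 7 and 4 counts in the WT mice and 216, 1115 and 323 in the KO mice. KO mouse 2 also had the highest marker sums for macrophages (3770 CPM) and fibroblasts (10300 CPM). Among the KO mice it had the highest brown adipocyte sum (15700 CPM) and the lowest muscle (376 CPM) and endothelial (318 CPM) sums. Which of these goes with its Atp6v0d2 counts was not tested.

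Other isoform families of the respiratory chain offered a comparison for the c-subunit shares. Cox6a2, the heart and muscle isoform of COX6A, had 1, 37 and 0 counts in the WT mice and 2443, 1331 and 5500 counts in the KO mice, or a mean share of 0.0259% ± 0.043 and 12.2% ± 2.4 of its family (SD, n = 3 each). Most of its WT counts came from WT mouse 2, which had the highest muscle markers of the WT mice (529 CPM). In the KO mice these markers summed to 483, 376 and 1380 CPM, so KO mouse 2 had 1331 counts of Cox6a2 at a lower marker sum than WT mouse 2. The part of muscle cells in the Cox6a2 counts was not tested. Cox7a1 made up 42.4% ± 0.93 of COX7A in WT BAT and 33.6% ± 2.3 in Letmd1 KO BAT, and Cox8b made up 43.1% ± 3.4 and 28.7% ± 3.7 of COX8. The shares of Cox4i2 in COX4 (0.176% ± 0.093 and 0.219% ± 0.053) and of Slc25a4 in the adenine nucleotide translocators (56.4% ± 2.6 and 57.5% ± 4.6) overlapped between the genotypes. These shares are a description of 3 mice each and were not tested.

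The genes whose pattern over the 6 mice was most like that of each member were found by the root mean square difference of log2 CPM after centring each gene, among 11922 other rows. Nearest to Atp5g1 were Efs (0.12), Phf11b (0.13), Coro1a (0.14), Cachd1 (0.14) and C5ar1 (0.15), where the median of all rows was 1.34. Atp5g2 was nearest to Rnpepl1 (0.018), Mrps24 (0.036) and Mrpl48 (0.038), with a median of 0.467. Atp5g3 was nearest to Rassf3 (0.039), Clcf1-pold4 (0.057) and Gstp1 (0.058), with a median of 0.395, and Atpif1 to Sema3c (0.058), Ctps (0.078) and Htatip2 (0.089), with a median of 1.04. All points share the 6 libraries and the 1 contrast between genotypes, and the genes nearest to Atp5g1 had log2 fold changes close to its own, between 2.59 and 2.83.

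Without WT mouse 2 and KO mouse 3, the mice with the most muscle markers of their genotypes, the log2 fold changes were 2.81 for Atp5g1, -0.79 for Atp5g2, -0.30 for Atp5g3 and 1.99 for Atpif1. In that fit 13 of the 14 other subunit genes were lower, where 14.8% of all rows were. KO mouse 2, with the most macrophage and fibroblast markers, had the lowest shares of Atp5g1 and Atp5g2 and the highest share of Atp5g3 among the KO mice. Among them it also had the highest sum of the markers used for brown adipocytes (15700 CPM). Its muscle (376 CPM) and endothelial (318 CPM) sums were the lowest, and its library the smallest (6669577 counts). Which of these goes with its shares was not tested. Without KO mouse 2 the log2 fold changes were 2.60, -0.76, -0.51 and 2.07, in the same order of genes. Across all settings, the range was 2.49 to 3.04 for Atp5g1, -0.80 to -0.32 for Atp5g2, -0.51 to 0.38 for Atp5g3 and 1.97 to 2.45 for Atpif1.

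**Figure D5:**
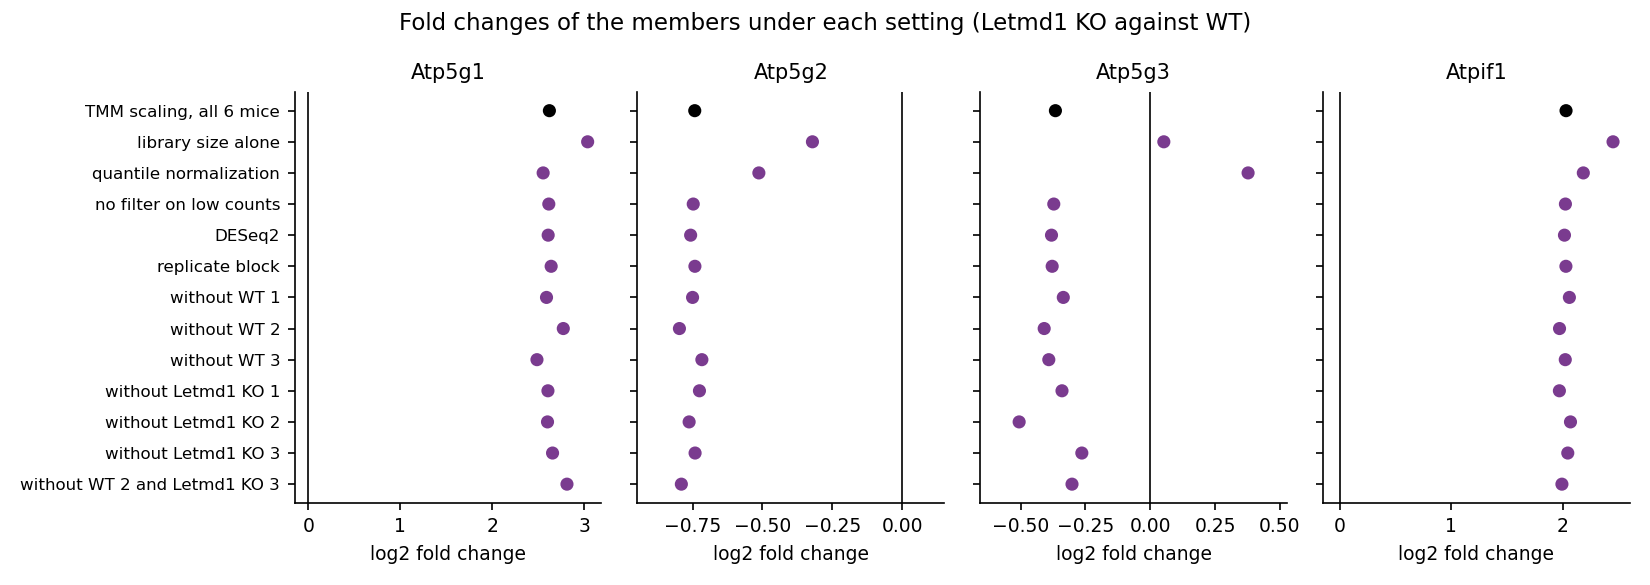
Log2 fold change of each member between Letmd1 KO and WT BAT under each setting, on panels with their own axis and a line at 0. The black point is the TMM fit with all 6 mice. Atp5g1, Atp5g2 and Atpif1 keep their side of 0 under each setting shown, and Atp5g3 turns to 0.05 with library size alone and 0.38 after quantile normalization.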

How the data were processed

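RNA of BAT from 3 WT and 3 Letmd1 KO mice was measured with QuantSeq 3′ libraries. The authors sequenced single-end reads of 75 bases, aligned them with Bowtie2 (mm10, per the submitters' processing notes), counted unique and multiple alignments with Bedtools and deposited whole-number counts per gene for each mouse. The quantile normalization of their methods is not in the deposited counts. Tool versions, the annotation and the use of strand are not given in the sources used here. Mitochondrially encoded ATP synthase subunits were not analysed here.

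Samples were grouped by the genotype in the labels. The p-values set the difference between genotypes against the spread between these mice, with information on spread shared across rows. The genotypes were compared on the counts with edgeR 4.0.16 (R 4.3.3), by its quasi-likelihood test with TMM scaling, the default filter (minimum count 10, minimum total 15) and Benjamini-Hochberg adjustment over 12995 rows at a threshold of 0.05. The SE of a log2 fold change was worked back from this test, as its absolute value divided by the square root of the F statistic. Log2 CPM used a prior count of 2. The steps were tested on simulated counts in which few genes changed, in both directions. RNA composition did not shift there, so this test cannot decide between the ways of scaling. Library totals were 6669577 to 14574273 counts, so a floor of 3 counts covers 0.176 to 0.397 CPM, counting error only.

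The 4 members and the gene lists were chosen with earlier results of these data known. Genes named are the members, Letmd1 and tested genes of the lists for ATP synthase, its assembly factors and partners and the isoform families. They also include the V-ATPase proteolipids with the highest and lowest other V-ATPase gene. The 5 genes (Atp5g1) or 3 genes (other members) nearest in pattern are named among rows with a mean of at least 20 counts. Some markers of cell types and genes sharing sequence with the members are named too. Atp6v1d and Atp6v1f, both lower, were named after their values were seen. Of the 9 higher V-ATPase genes, only Atp6v0c and Atp6v0d2 are named. Alternatives were library size alone, quantile normalization with limma 3.58.1, DESeq2 1.42.0, no filter, a threshold of 0.01, the replicate number as a block, other denominators or sums, and leaving out mice. Positions and coding sequences came from GENCODE vM21 on GRCm38 and start regions from RefSeq on GRCm38.p6.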

Additional observations from a re-analysis of the deposited data

How the results depend on the processing

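With library size alone the log2 fold change was 3.04 for Atp5g1, -0.32 for Atp5g2, 0.053 for Atp5g3 and 2.45 for Atpif1, while the median over all rows was 0.45. After quantile normalization with limma, Atp5g2 was at -0.51, Atp5g3 at 0.38 and Atpif1 at 2.19. In that setting 8 of the 14 other subunit genes were lower, where 23.7% of all rows were. Atp5g3 thus reversed under both, and the KO to WT ratio of the summed c-subunit CPM reversed from 0.786 to 1.051 with library size alone, while that of F1 was 0.678 (both chosen after seeing the data). With library size alone and after quantile normalization, 1 of the assembly factors and partners was higher (Slc25a3). Library size alone left 1 V-ATPase gene lower and gave 1368 lower and 5899 higher rows in all. A threshold of 0.01 left 1985 rows higher. Without WT mouse 2 and KO mouse 3, a setting chosen after seeing the data, 1912 rows were lower and 1977 higher, and 1 V-ATPase gene was lower, in a fit with 2 mice per genotype. Atpif1 relative to c-subunit counts differed 5.29-fold instead of 8.14-fold relative to F1. The causes were not tested, beyond what each setting changes by construction.

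No pairing of the mice by replicate number was seen, as the deviations of same-numbered mice correlated at 0.0691, -0.111 and -0.0865. With 3 mice per genotype a modest pairing could be missed. With the replicate block, 13 of the 14 other subunit genes (not Atp5j), 6 assembly factors and partners, 2713 rows in all were lower and 2886 higher. Leaving out each mouse in turn gave 13 lower subunit genes in every case, where 17.7% to 21.4% of all rows were lower. It also gave 6 to 7 lower assembly factors and partners. The log2 fold changes were 2.49 to 2.77 for Atp5g1, -0.80 to -0.72 for Atp5g2, -0.51 to -0.26 for Atp5g3 and 1.97 to 2.07 for Atpif1. The WT share of Atp5g1 stayed between 0.599% and 0.752% and the KO share between 5.25% and 5.79%. Atp5g1 had only 59 to 109 counts in the WT mice, which limits the precision of its WT level.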
